A study of Mus musculus with 10 samples.

Results

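Sostdc1 and 8 genes that antagonise or modulate bone morphogenetic protein (BMP) signalling (Sost, Nog, Grem1, Chrd, Chrdl1, Fst, Bmper and Bambi) were followed through 10 mouse RNA sequencing libraries. The 9 genes were found by symbol among the 55385 genes of the count table. Sostdc1 was picked because its level was much higher under the IL6 hairpin, so its difference is given as a description with no p-value. The other 8 were listed for what they encode, not for their values. The cells are a mouse line derived from an ovarian tumour that carried both Arid1a and Pik3ca mutations, named APV245 in the titles and APC245 in the design text. In 5 libraries the genotype label is IL6 knockdown, by 1 hairpin called IL6 shRNA1, and in the other 5 it is WT (control shRNA), a hairpin of non-mammalian sequence in pLKO.1-puro. All 10 carry the treatment label "no treatment". The sample labels describe cells kept in DMEM with serum, whereas the design text speaks of tumours under the skin, and the host is not described.

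BMPs are secreted ligands of the TGF-beta superfamily that bind a pair of type I and type II receptors, which phosphorylate SMAD1, SMAD5 and SMAD9. Extracellular antagonists bind the ligands and keep them from the receptors: noggin, chordin, follistatin and the cystine-knot proteins of the gremlin and sclerostin families act this way. SOSTDC1 (also called ectodin, wise or USAG-1) and its closest relative sclerostin, the product of Sost, also bind the Wnt co-receptors LRP4, LRP5 and LRP6, so they stand at the crossing of both pathways. In the ovary and in tumours BMP signals act on differentiation, growth and motility, and target genes such as the Id family are commonly used to read them.

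The targeted gene was not lower in the libraries labelled as its knockdown. Il6 was at 1.07, 1.83, 2.18, 1.80 and 1.75 CPM (counts scaled to library size with TMM factors) in IL6 shRNA1 libraries 1 to 5 and at 1.61, 0.438, 2.06, 1.34 and 0.830 CPM in control libraries 1 to 5, a log2 fold change of 0.44 ± 0.36 (SE; edgeR adjusted p = 0.436). Each direction below is therefore given for libraries by their label alone. The total count ran from 17905397 to 22682346 per library. Along the first principal component (54.3% of the variance) IL6 shRNA1 library 5 and control libraries 2 and 5 lay farthest out. The label "tumor cells" was checked against markers: Wt1 and Krt8 were well counted (83.0 and 71.0 CPM in the libraries labelled IL6 shRNA1, 90.5 and 53.0 CPM in control), Epcam was low (4.17 and 2.81 CPM) and Pax8 was nearly uncounted (0.0528 and 0.0182 CPM). The 12 epithelial and Mullerian markers, these among them, summed to 363 to 384 CPM against 154 to 369 CPM in control. Of 11 tested, 1 was called, Upk3b, at 120 ± 8.68 against 58.9 ± 27.6 CPM (SD, edgeR adjusted p = 0.0415). Markers of other cells were counted too. The summed level of 26 leukocyte markers was 3418 to 6805 CPM against 1284 to 3587 CPM in control, with 13 of 22 tested higher. Over all 15064 genes tested, edgeR called 11.8% at an adjusted p under 0.05 (5.62% higher, 6.16% lower). DESeq2 called 3027 of them and limma voom 1807, and 4693 had an unadjusted edgeR p under 0.05. The sum of 8 skeletal muscle markers ran from 47.4 to 9691 CPM against 19.6 to 1045 CPM, with 0 of 8 called by edgeR (6 at an unadjusted p under 0.05, 4 by DESeq2, 0 by limma voom). In such mixtures a change in the number of cells of a type and a change of RNA per cell cannot be told apart. Of 16 immediate early genes, listed as a sign of handling, 7 were called higher and 0 lower by edgeR. Their sum was 927 to 1204 CPM against 744 to 966 CPM in control, and the part of handling was not tested.

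Sostdc1 (ENSMUSG00000036169.6, chromosome 12, 36314139 to 36318452, plus strand of GRCm38) was about 6 times as abundant in the libraries labelled IL6 shRNA1. It was counted 477, 547, 691, 514 and 589 times in IL6 shRNA1 libraries 1 to 5 and 109, 152, 102, 65 and 94 times in control libraries 1 to 5. On the CPM scale these are 25.5, 27.0, 37.7, 25.0 and 31.2 against 4.62, 7.40, 4.38, 3.36 and 5.58. The groups did not overlap: the lowest library labelled IL6 shRNA1 (library 4) stood at 25.0 CPM and the highest control (library 2) at 7.40 CPM. The fitted log2 fold change was 2.53 ± 0.20 (SE), a fold of 5.78. Because the gene was picked for this difference, nothing is read from it. For scale, the groups of 10.9% of the 15064 genes tested did not overlap (4.81% higher, 6.13% lower). By fitted log2 fold change it ranked 88 among all 15064 genes tested. Among called genes with a symbol that is no model name, a mean of at least 5 CPM and groups that did not overlap it ranked 2, after Hoxb9 (4.29) and before Igf2bp1 (2.46) and Pax3 (2.09). Both ranks restate the difference that the gene was picked for and give it no support.

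The coefficient of variation of Sostdc1 was 18.1% in the libraries labelled IL6 shRNA1 and 30.1% in control. Sums of leukocyte, muscle and skin markers had higher medians in the libraries labelled IL6 shRNA1, with ranges that overlapped those of control. The highest muscle and skin sums, 9691 and 982 CPM, were both in IL6 shRNA1 library 5. Besides the leukocyte and muscle sums given above, 8 skin markers, of interest because Sostdc1 is known from hair follicles and tooth germs, summed to 122, 107, 92, 99.9 and 982 CPM in IL6 shRNA1 libraries 1 to 5 and to 56.8, 30.0, 44.0, 104 and 21.7 CPM in control libraries 1 to 5. Of these 8, 4 could be tested, and their median log2 fold change was 2.79, with 0 called by edgeR (4 at an unadjusted p under 0.05, 1 by DESeq2, 0 by limma voom). Without the 3 farthest libraries the log2 fold change of Sostdc1 was 2.80, and adding a leukocyte marker score per library to the model also gave 2.80. No muscle or skin score was added to any model. Nothing is read from these values, because the gene was picked for its difference. The part of leukocytes, muscle and skin in the Sostdc1 values was not tested.

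**Figure D1:**
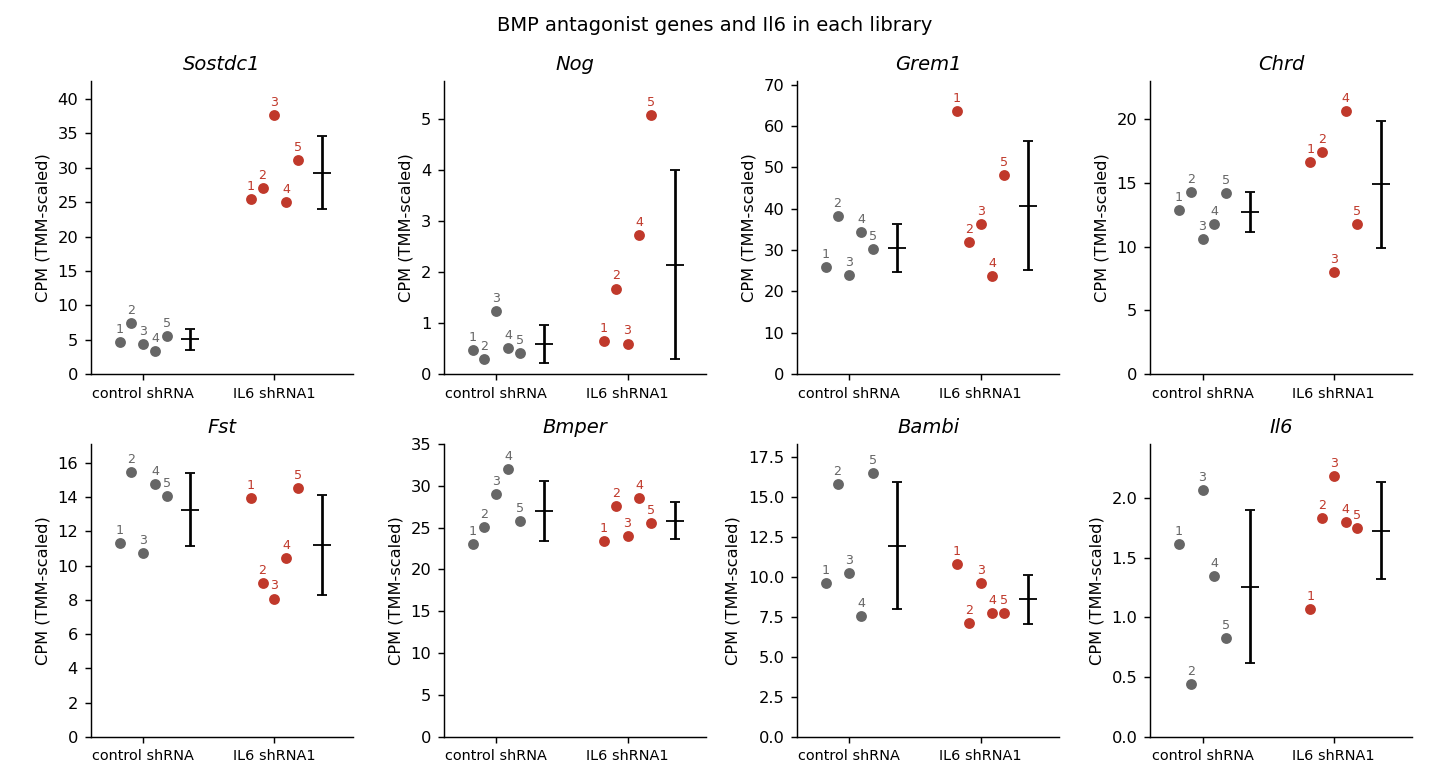
CPM of the 7 tested antagonist genes and of Il6 in each library (y axis, from 0), with control shRNA in grey and IL6 shRNA1 in red. Small numbers are the library numbers, and the black bar is the mean ± SD of 5 libraries. Sostdc1 has no overlap between the groups (25.0 CPM and above against 7.40 CPM and below), while the groups of the other genes overlap.

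Because CPM does not account for gene length, the 9 genes were ranked against each other with the deposited FPKM values (fragments scaled to gene length and library size). In control the highest mean was that of Grem1 at 7.30 ± 1.17 FPKM (SD, n = 5), followed by Bmper at 5.58 ± 0.89 FPKM. Fst (2.87 FPKM), Sostdc1 (2.81), Bambi (2.32) and Chrd (2.02) formed a middle group whose neighbours overlapped in range, and Nog was lower at 0.354 FPKM. Fst was above Sostdc1 in only 1 of the 5 control libraries, library 4 (3.27 against 1.91 FPKM). Bmper and Fst did not overlap in range, nor did Chrd and Nog.

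In the libraries labelled IL6 shRNA1 Sostdc1 stood first at 16.5 ± 3.15 FPKM, ahead of Grem1 at 9.72 ± 3.31 FPKM. Sostdc1 was above Grem1 in 4 of these 5 libraries; in library 1 Grem1 was higher, with 14.6 FPKM against 13.6 FPKM. After them came Bmper (5.35 FPKM), Fst (2.43), Chrd (2.38), Bambi (1.69) and Nog (1.26). Among these neighbours only Bmper and Fst did not overlap in range. Of the summed FPKM of the 9 genes, Sostdc1 made up 33.5 to 52.7% in the libraries labelled IL6 shRNA1 and 7.98 to 15.1% in control. The sum without Sostdc1 was 22.8 ± 3.26 FPKM and 20.4 ± 1.61 FPKM, with overlapping ranges of 19.4 to 27.0 and 18.4 to 22.1 FPKM.

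**Figure D2:**
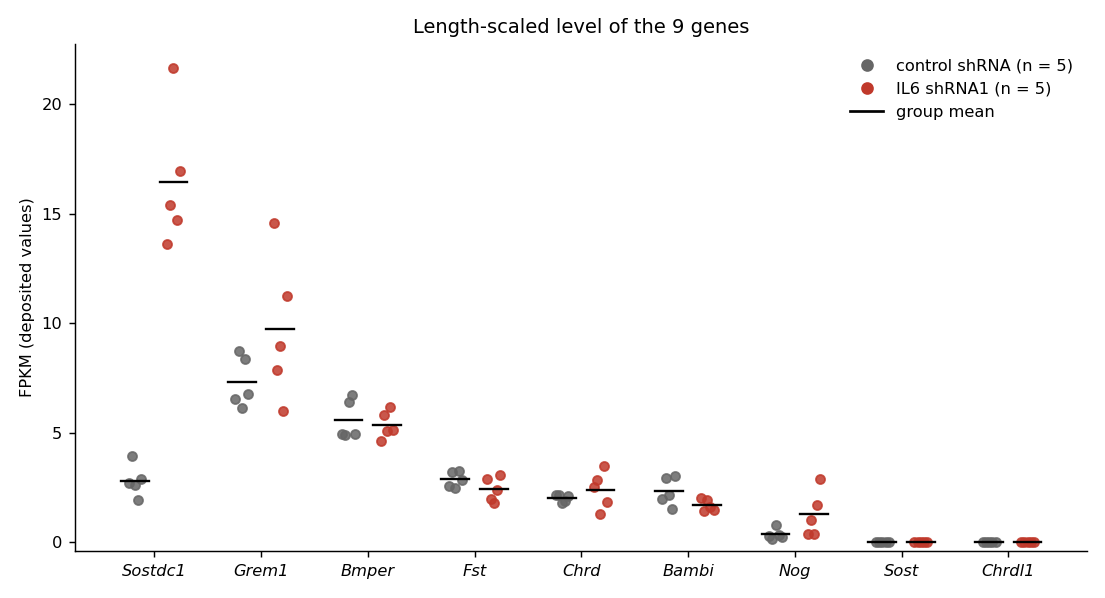
Deposited FPKM (y axis, linear) of the 9 genes in each of the 5 control shRNA (grey) and 5 IL6 shRNA1 libraries (red); black lines are group means. Sostdc1 moves from the middle of the set (mean 2.81) to its top (mean 16.5), and Sost and Chrdl1 lie at or next to 0.

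Of the 9 genes, 7 passed the filter on low counts, and 0 of the 6 other than Sostdc1 were called by edgeR's quasi-likelihood test at a Benjamini-Hochberg adjusted p under 0.05, where 11.8% of all genes tested were called (5.62% higher, 6.16% lower). At an unadjusted p under 0.05 there was 1 of the 6, Nog, which DESeq2 also called (adjusted p = 0.022), and limma voom called 0. With 6 genes, a count of 0 is near that background share. Their median log2 fold change was 0.08, beside -0.01 over all genes tested. The labels do not say whether libraries of a group came from separate cultures or animals, so p-values measure the spread between these libraries only.

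Among the classical ligand traps, Nog (chromosome 11, 89300638 to 89302332) encodes noggin, which blocks the receptor contacts of BMP2, BMP4 and BMP7. It was counted 12, 34, 11, 56 and 96 times in IL6 shRNA1 libraries 1 to 5 and 11, 6, 29, 10 and 7 times in control libraries 1 to 5. IL6 shRNA1 libraries 2, 4 and 5 lay above all controls, at 1.68, 2.73 and 5.08 CPM, whereas libraries 1 and 3, at 0.641 and 0.601 CPM, lay below control library 3 at 1.25 CPM. The log2 fold change was 1.84 ± 0.62 (SE; 95% interval 0.46 to 3.22) and was not called (edgeR adjusted p = 0.0772). The value depended on single libraries. Without IL6 shRNA1 library 1 it was called (2.09, edgeR adjusted p = 0.038), without IL6 shRNA1 library 5 it was 1.25 (adjusted p = 0.18), and without the 3 farthest libraries it was 0.92 (adjusted p = 0.51).

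The libraries with the most Nog, a gene also known from developing muscle and skeleton, also had the highest sums of muscle markers. IL6 shRNA1 library 5 had the highest muscle sum (9691 CPM) and the highest Nog, libraries 2 and 4 had 2144 and 1444 CPM, and control library 3, the highest control for Nog, had 1045 CPM, the highest of its group. The other libraries did not follow that order. IL6 shRNA1 library 3 had a muscle sum of 968 CPM and 0.601 CPM of Nog, whereas IL6 shRNA1 library 1 had 47.4 CPM and 0.641 CPM, more Nog than control libraries 1, 2 and 4 with muscle sums of 196, 56.6 and 359 CPM. The log2 fold change of Nog was 0.41 (adjusted p = 0.93) with the leukocyte score in the model. The part of muscle in the Nog values was not tested.

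**Figure D3:**
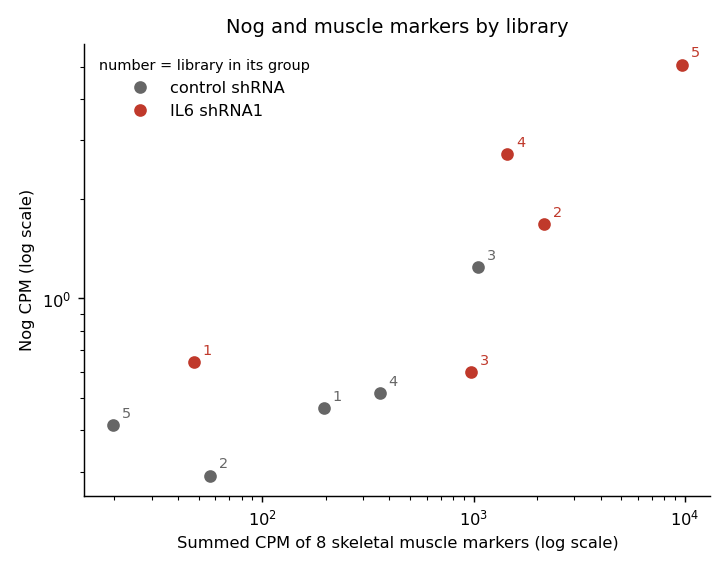
Nog CPM (y axis, log scale) against the summed CPM of 8 skeletal muscle markers (x axis, log scale) in the 10 libraries, numbered within control shRNA (grey) and IL6 shRNA1 (red). IL6 shRNA1 libraries 2, 4 and 5 and control library 3 hold the highest values of both, from 1.25 to 5.08 CPM of Nog.

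Chrd (chromosome 16, 20733127 to 20742384) encodes chordin, a large BMP-binding protein that is inactivated by tolloid proteases. It stood at 16.6, 17.4, 7.97, 20.6 and 11.7 CPM in IL6 shRNA1 libraries 1 to 5 and at 12.9, 14.3, 10.6, 11.7 and 14.2 CPM in control libraries 1 to 5. The libraries labelled IL6 shRNA1 spread on both sides of control, with libraries 1, 2 and 4 above every control and library 3 below every control (log2 fold change 0.23, 95% interval -0.26 to 0.71, edgeR adjusted p = 0.518). Thpo overlaps Chrd on the opposite strand with 243 counts in all libraries together, and the strand setting of the counting is not given in the sources used here. Chrdl1 (chromosome X, 143285674 to 143394262), for a chordin-like antagonist, had 0 counts in all 10 libraries, a limit of 0.127 to 0.178 CPM per library if 3 counts are allowed (counting error only). The tolloid genes Bmp1 and Tll1 were at 744 against 846 CPM (adjusted p = 0.457) and 31.2 against 27.5 CPM (adjusted p = 0.426).

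Grem1 (chromosome 2, 113746164 to 113758646) encodes gremlin 1, a cystine-knot antagonist of BMP2, BMP4 and BMP7 made by many stromal cells. It was at 63.7, 32.1, 36.3, 23.8 and 48.2 CPM in IL6 shRNA1 libraries 1 to 5 and at 26.0, 38.1, 23.9, 34.3 and 30.3 CPM in control libraries 1 to 5. IL6 shRNA1 libraries 1 and 5 were above all controls and library 4 was just below them. The log2 fold change of 0.42 (95% interval -0.12 to 0.96) was not called (edgeR adjusted p = 0.27). The 2 libraries with the most Grem1 also had the highest sums of 12 fibroblast and pericyte markers in their group, 5748 and 5721 CPM, but the control libraries reached 6908 CPM with less Grem1. Of those 12 markers 0 were higher and 2 lower, beside 5.62% higher and 6.16% lower over all genes tested. The part of such cells in the Grem1 values was not tested. Sost (chromosome 11, 101962458 to 101967015), the closest relative of Sostdc1 and known from osteocytes, had 1 count in IL6 shRNA1 library 4 and 0 in the other 9 libraries.

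Fst (chromosome 13, 114452290 to 114458951) encodes follistatin, which binds activins tightly and BMPs less so. Its levels were 13.9, 8.99, 8.08, 10.5 and 14.6 CPM in IL6 shRNA1 libraries 1 to 5 and 11.3, 15.5, 10.7, 14.8 and 14.1 CPM in control libraries 1 to 5. IL6 shRNA1 libraries 2, 3 and 4 lay below all controls and the other two among them (log2 fold change -0.24, 95% interval -0.64 to 0.15, edgeR adjusted p = 0.387). Of the activin and inhibin subunits, 0 of 3 tested were called by edgeR, with 0 at an unadjusted p under 0.05, 0 by DESeq2 and 0 by limma voom. Inhba, the most abundant of them, was at 139 ± 28.7 against 174 ± 60.4 CPM.

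Bmper (chromosome 9, 23223076 to 23485200), for a secreted BMP-binding protein that can act for or against the ligand, had the narrowest interval of the 7 tested genes. It ran from 23.4 to 28.5 CPM in the libraries labelled IL6 shRNA1 and from 23.04 to 32.0 CPM in control, and its log2 fold change was -0.06 with a 95% interval from -0.28 to 0.15 (edgeR adjusted p = 0.703).

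Bambi (chromosome 18, 3507923 to 3516404) encodes a membrane pseudoreceptor that lacks the kinase domain of type I receptors and is itself a target of BMP and Wnt signalling. It was at 10.8, 7.11, 9.61, 7.74 and 7.73 CPM in IL6 shRNA1 libraries 1 to 5 and at 9.63, 15.8, 10.2, 7.55 and 16.5 CPM in control libraries 1 to 5. Control libraries 2 and 5, which lay farthest out on the first principal component, were the high ones, and the remaining 8 libraries stood between 7.11 and 10.8 CPM. The log2 fold change was -0.47 (95% interval -0.96 to 0.01, edgeR adjusted p = 0.17), and with the leukocyte score in the model it was 0.03.

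In the wider pathway 4 genes were called: Id2, Hey1, Lrp6 and Ccnd1. The lists of ligands, receptors, SMADs, other antagonists, BMP targets, LRP proteins and Wnt targets held 65 distinct tested genes besides the 9, of which 2 were higher, 2 lower and 61 not called. That is 6.15%, beside 11.8% of all genes tested, a difference that was not tested, and their median log2 fold change was -0.05. The count moved with single libraries: it was 13 without IL6 shRNA1 library 1 (when 2774 of all 15254 genes were called), 1 without IL6 shRNA1 library 2, 3 or 5, 6 without control library 1, 0 without control library 2, 2 without control library 3 and 1 without control library 4 or 5. It was 0 without the 3 farthest libraries and 0 with the leukocyte covariate. For scale beside the lists below, 4693 of all 15064 genes tested had an unadjusted edgeR p under 0.05. DESeq2 called 3027 of all genes tested and limma voom 1807.

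**Figure D4:**
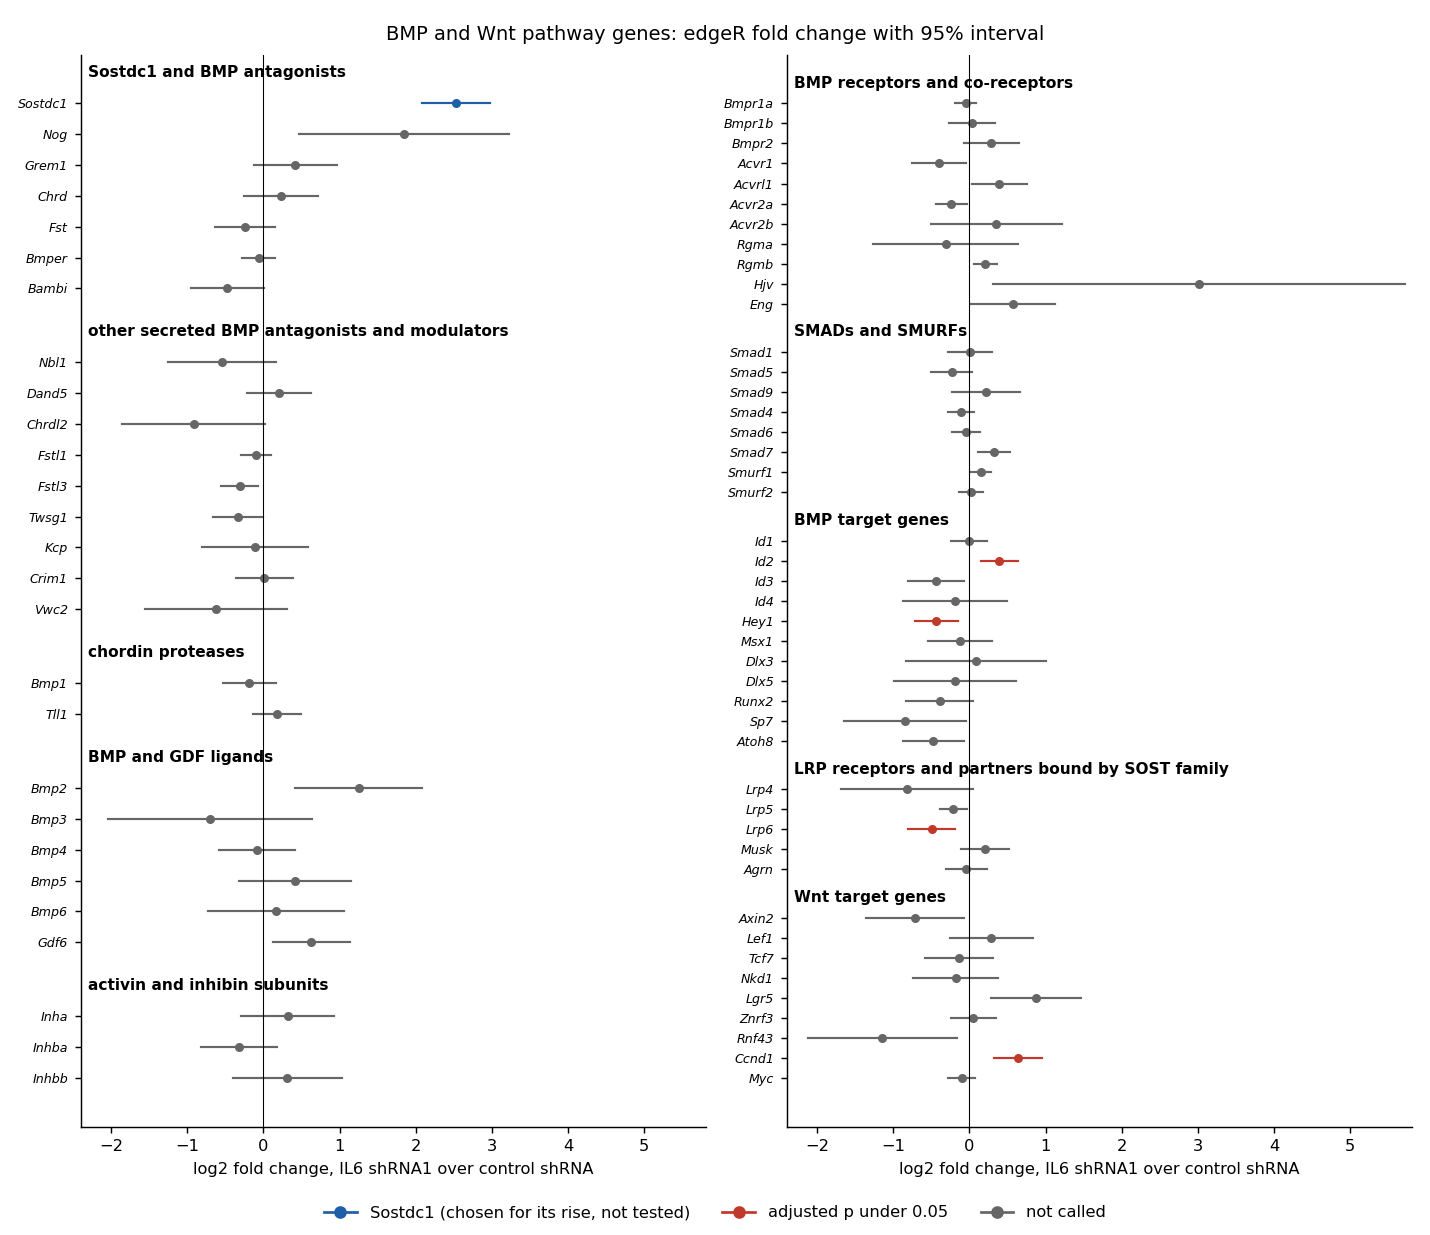
Fitted log2 fold change (x axis; dot) with 95% interval (line) of the 7 tested antagonist genes and of tested genes of the BMP and Wnt pathways, grouped by role. Red marks the 4 called genes and grey the rest. Blue marks Sostdc1, given without a p-value because it was picked for its rise (not tested, in the words of the legend). Sostdc1 stands at 2.53, with Hjv (3.01) beyond it on a 95% interval from 0.31 to 5.71.

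Of 10 other secreted antagonists and modulators 0 were called by edgeR (2 at an unadjusted p under 0.05, 1 by DESeq2, 0 by limma voom). Fstl1, for a follistatin-like glycoprotein, had the highest mean FPKM of them and was at 2657 ± 301 against 2837 ± 206 CPM (adjusted p = 0.502).

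Of the BMP and GDF ligands 6 of 14 were counted well enough to test, and 0 were called by edgeR (2 at an unadjusted p under 0.05, 2 by DESeq2, 0 by limma voom). Gdf6 and Bmp4 had the highest mean FPKM. Gdf6 was at 50.05 ± 12.6 against 32.3 ± 9.8 CPM (adjusted p = 0.0977) and Bmp4 at 24.4 ± 2.94 against 25.8 ± 9.07 CPM (adjusted p = 0.84). Bmp2 was at 2.35 ± 0.86 against 0.977 ± 0.48 CPM (adjusted p = 0.0548). Bmp7, which SOSTDC1 is known to bind, was not tested, and its highest values were 0.962 and 3.12 CPM in IL6 shRNA1 libraries 1 and 5.

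All 11 BMP receptor and co-receptor genes were tested and 0 were called by edgeR (6 at an unadjusted p under 0.05, 2 by DESeq2, 0 by limma voom). The type I receptor gene Bmpr1a was at 161 ± 12.5 against 166 ± 5.55 CPM (adjusted p = 0.635) and the type II receptor gene Bmpr2 at 205 ± 52.7 against 168 ± 22.7 CPM (adjusted p = 0.259). The co-receptor gene Hjv (hemojuvelin), known from skeletal muscle and liver, ran from 0.374 to 66.7 CPM in the libraries labelled IL6 shRNA1, the highest in library 5 with its muscle sum of 9691 CPM. In control Hjv ran from 0.195 to 7.99 CPM. Its log2 fold change of 3.01 was not called by edgeR (adjusted p = 0.126), though DESeq2 called it. Of 8 SMAD and SMURF genes 0 were called by edgeR (2 at an unadjusted p under 0.05, 1 by DESeq2, 0 by limma voom). The feedback inhibitor gene Smad7 was at 46.0 ± 5.97 against 36.9 ± 2.61 CPM (adjusted p = 0.0543), and Smad4, the common SMAD and the one with the highest mean FPKM, at 106 ± 10.2 against 115 ± 8.44 CPM.

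Genes that BMPs are known to induce were called at near the share of all genes tested, 11.8% (5.62% higher, 6.16% lower). Of 14 tested, Smad6, Smad7 and Smad9 among them, 1 was higher, 1 lower and 12 not called, with a median log2 fold change of -0.15 (6 at an unadjusted p under 0.05, 3 called by DESeq2, 2 by limma voom). Id2, for an inhibitor of basic helix-loop-helix factors, rose from 23.6 ± 3.54 to 31.0 ± 2.96 CPM (SD, n = 5; log2 fold change 0.39, edgeR adjusted p = 0.0461). Its lowest library labelled IL6 shRNA1 was at 27.4 CPM and its highest control at 27.2 CPM. Hey1, a transcriptional repressor gene that Notch also induces, fell from 112 ± 13.4 to 82.9 ± 14.5 CPM (log2 fold change -0.44, adjusted p = 0.0483), and its groups did not overlap either, at 59.5 to 97.01 and 101 to 131 CPM.

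Of the Id family, used as readouts of BMP signals, Id2 was called higher, as given above, whereas Id1, Id3 and Id4 were not called by edgeR. Id4 had a log2 fold change of -0.19 (adjusted p = 0.724). Id1 stood at 22.0, 30.0, 28.0, 23.7 and 21.9 CPM in IL6 shRNA1 libraries 1 to 5 and at 24.0, 28.1, 23.2, 23.02 and 27.8 CPM in control libraries 1 to 5. The groups covered the same range, with a log2 fold change of -0.01 and a 95% interval from -0.25 to 0.23 (edgeR adjusted p = 0.974). Id3, the most abundant of the list, was at 195 ± 43.3 against 265 ± 47.5 CPM (log2 fold change -0.44, adjusted p = 0.108), and control libraries 2 and 5, the high ones for Bambi, were its highest at 304 and 324 CPM.

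On the Wnt side, 1 of the 5 LRP-related genes was lower and 4 were not called (2 at an unadjusted p under 0.05, 1 called by DESeq2, 1 by limma voom). Lrp6, a co-receptor that SOSTDC1 and sclerostin bind, fell from 188 ± 29.2 to 134 ± 24.5 CPM (log2 fold change -0.49, edgeR adjusted p = 0.0446). Its groups overlapped, because IL6 shRNA1 library 1 (166 CPM) exceeded control libraries 1 and 3 (160 and 156 CPM). Lrp6 lies on chromosome 6, where 216 of 797 tested genes were lower and the median log2 fold change was -0.23. Lrp5, the related co-receptor gene on chromosome 19, was at 113 ± 10.4 against 131 ± 11.3 CPM (adjusted p = 0.112). Lrp4 was at 23.3 ± 9.41 against 41.3 ± 23.04 CPM (adjusted p = 0.179), and Agrn, for the LRP4 ligand agrin, at 142 ± 23.6 against 146 ± 17.8 CPM (adjusted p = 0.855).

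Of 9 Wnt target genes tested, 1 was higher and 8 were not called by edgeR (4 at an unadjusted p under 0.05). DESeq2 called 2, Ccnd1 and Lgr5, and limma voom called 2, Ccnd1 and Axin2. Ccnd1, for cyclin D1, which many other signals also induce, rose from 41.8 ± 9.32 to 64.8 ± 7.02 CPM (log2 fold change 0.63, edgeR adjusted p = 0.0203). Its libraries did not overlap, at 56.4 to 73.5 and 30.7 to 53.8 CPM. Axin2, the target most specific to Wnt signalling, was at 11.4 ± 6.16 against 18.8 ± 0.87 CPM (adjusted p = 0.124), and the stem cell receptor gene Lgr5 at 44.2 ± 18.7 against 24.1 ± 4.87 CPM (adjusted p = 0.0589). Myc, with the highest mean FPKM of the list, was at 104 ± 4.19 against 112 ± 12.8 CPM.

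Calls of these 4 genes were close to the threshold. Id2, Hey1 and Lrp6 lost the call in most omissions of a single library, with adjusted p of up to 0.093, 0.11 and 0.11, and Ccnd1 without IL6 shRNA1 library 5 or control library 2 (adjusted p = 0.05 and 0.051). Without the 3 farthest libraries the log2 fold change was 0.41 for Id2 (adjusted p = 0.23), -0.29 for Hey1 (0.19), -0.41 for Lrp6 (0.27) and 0.48 for Ccnd1 (0.17). With the leukocyte score in the model it was 0.24 (adjusted p = 0.65), -0.28 (0.63), -0.18 (0.77) and 0.37 (0.49). Scaling alone also moved some: with library totals Id2 and Hey1 had adjusted p of 0.066 and 0.063, and with RLE factors Lrp6 had 0.053.

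Values for some of the genes around Sostdc1 on chromosome 12 are set beside its log2 fold change of 2.53; they are not a full account of that region. The 3 nearest tested genes on its lower side were Ankmy2 (117 kb away), Bzw2 (156 kb) and Tspan13 (272 kb), with log2 fold changes of -0.11, 0.09 and -0.13 and adjusted p of 0.553, 0.558 and 0.844 (edgeR). On the upper side Meox2, a homeobox gene, and Agmo lie 790 and 923 kb away and had log2 fold changes of 0.01 and 0.41 (adjusted p = 0.989 and 0.396). The median over the 556 tested genes of chromosome 12 was 0.01.

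Likeness to Sostdc1 was described by Pearson's r of log2 CPM over the 10 libraries, among the 10825 genes averaging 5 CPM or more. The nearest were Pax3 (r = 0.984), Cops5 (0.97), Hsd17b7 (0.964), Srp9 (0.963) and Msra (0.963). The first 4 lie on chromosome 1, where 268 of 917 tested genes were higher, 1 was lower and the median log2 fold change was 0.32. A difference between the groups alone gives a high r. Pax3, a transcription factor gene, was at 17.9, 15.1, 19.7, 12.5 and 17.9 CPM in IL6 shRNA1 libraries 1 to 5 and at 3.82, 4.77, 3.09, 3.72 and 4.03 CPM in control libraries 1 to 5. In both genes IL6 shRNA1 library 3 was the highest and library 4 the lowest of the libraries labelled IL6 shRNA1, and control library 2 the highest control. The lowest control was library 3 for Pax3 (3.09 CPM) and library 4 for Sostdc1 (3.36 CPM). Pax3 was named for having the highest r, so a shared order is partly set by that choice.

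With each group's mean taken out, the nearest genes were others: Slc39a11 (r = 0.952), Hoxb13 (0.945), Ykt6 (0.935), Ggt5 (0.93) and Abhd12 (0.923), with log2 fold changes between -0.28 and -0.04. Among the antagonists, Bambi followed Sostdc1 within the groups with r = 0.735, and Bmper went the other way with r = -0.599, while Nog, Grem1, Chrd and Fst lay between -0.314 and 0.179. These values rest on 10 libraries, which differed in total count and in their sums of leukocyte and muscle markers. The part of those differences in the correlations was not tested.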

How the data were processed

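Total RNA was purified on RNeasy columns and built into NEBNext Ultra II libraries, per the labels' protocols, all under 1 batch label. Per the submitters' processing notes, the tools included STAR 2.7.0f, featureCounts of Subread 1.6.4, and Trim Galore 0.6.6, and the builds mm10 and GRCm38. The sources used here do not give the strand setting or the annotation release. The deposited table of the authors holds raw counts per gene, and their second deposited table holds FPKM, scaled by gene length and library. No column was left out.

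Counts were tested in R 4.3.3 with edgeR 4.0.16: filterByExpr by group (minimum count 10), TMM, estimateDisp, glmQLFit with robust=TRUE and glmQLFTest on 5 against 5 libraries, with Benjamini-Hochberg adjustment over 15064 genes and calls under 0.05. SEs are the log2 fold change divided by the root of F. The test was checked on simulated counts. CPM are counts scaled by library size with TMM factors, and log2 CPM use a prior count of 2. A list's score is the mean of centred log2 CPM over its tested markers. DESeq2 1.42.0, limma 3.58.1, other scalings and filters, a replicate block, log2 FPKM with pseudocounts of 1 and 0.1, and omission of libraries were alternatives. Python 3.11.15 with pandas 2.3.3 drew the summaries.

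The 9 genes, the lists and the alternatives were chosen with earlier results of these data known. Named were Il6, the 9 genes, in each list the called genes and the one highest in FPKM, 3 neighbours on each side of Sostdc1 and 5 genes by each measure of likeness; any further gene was picked with its values in view. Some genes that this rule names are not reported here. Of the sets of markers, leukocytes, endothelium, fibroblasts and pericytes, epithelial and Mullerian tumour, skin, muscle, fat, blood and immediate early genes were summed.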

Additional observations from a re-analysis of the deposited data

Results flagged for a closer look

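Nog in control shRNA library 3 was at 1.25 CPM, far above the other 4 control libraries at 0.292 to 0.517 CPM; its gap to the next library was 0.764 of the range of its group. It was the 1 such library among 24 combinations of gene and group, and chance gives about 1 in 20. This library also had the highest muscle marker sum of the control group, 1045 CPM, and the part of muscle in this value was not tested.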

How the results depend on the processing

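The log2 fold change of Sostdc1 ran from 2.20 (FPKM with a pseudocount of 1, which shrinks low values by construction) to 2.80 over 13 alternatives and from 2.41 to 2.72 when single libraries were left out. Over all genes 1775 were called, against 3027 with DESeq2, 755 with the replicate block, 212 without the 3 farthest libraries and 56 with the leukocyte covariate, and 864 to 2774 with 1 library left out (2774 without IL6 shRNA1 library 1, 869, 1024, 1154 and 989 without libraries 2 to 5, and 875 and 864 without control libraries 2 and 5). Of the pathway genes 4 were called, against 11 with DESeq2, 2 with library totals only, 2 with either FPKM pseudocount, 1 with the replicate block, 0 without the 3 farthest libraries and 0 with the leukocyte covariate, and 0 to 13 with 1 library left out. Besides Sostdc1, 0 antagonists were called, against 1 (Nog) with DESeq2 and 0 to 1 with 1 library left out. With the leukocyte covariate the sign turned for Bambi (0.03), Fst (0.09) and Il6 (-0.65), none of them called, and Bmper was at 0.00 without control library 4 (-0.10 to 0.00 over the single omissions). The cause of these shifts was not tested. Libraries of the same number did not deviate together (correlations from -0.28 to 0.27, and 1 of 5 numbers matched best with its own), so the numbers are not taken as pairs. With the replicate block 0 of the 4 pathway calls were kept and Lgr5 was called. Depth limits Sost and Chrdl1, at 0 or 1 count.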
